A study of Homo sapiens with 18 samples.

Results

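The genes of oxidative phosphorylation (OXPHOS) were followed through RNA-seq of VCaP prostate cancer cells. Members were genes of the count table chosen by symbol patterns for subunits of complexes I to V (NDUF, SDH, UQCR, COX, ATP5, and MT- names). They also had at least 10 counts in each of the 18 samples. The patterns do not reach every subunit: CYC1 of complex III and NDUFAB1 of complex I do not match and are not members. Of 144 matching symbols among 22034 genes, 93 met this rule, of which 80 are nuclear and 13 are mitochondrially encoded. Complex I had 44 members (37 nuclear and 7 mitochondrial), complex II 4 (all nuclear), complex III 10 (9 and 1), complex IV 16 (13 and 3), and complex V 19 (17 and 2). NDUFA4 was counted in complex IV, of which it is a subunit. The 51 genes left out were 45 pseudogene symbols and ATP5MGL, COX6A2, COX6B2, COX7B2, COX8C, and NDUFA4L2. Of the 93, the processed pseudogenes NDUFV2P1 and COX6A1P2 and the near copy UQCRHL of UQCRH share sequence with another gene, so their counts are uncertain. All 93 also passed the filter on low counts used for the tests, which kept 14164 genes.

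Complexes I and II take electrons from NADH and succinate, complex III passes them to cytochrome c, and complex IV passes them to oxygen. Complexes I, III, and IV pump protons across the inner mitochondrial membrane, and complex V, the ATP synthase, lets them return and makes ATP. Most subunits are encoded in the nucleus, made in the cytosol, and imported, whereas a small set of hydrophobic core subunits is transcribed from both strands of the mitochondrial DNA as long RNAs that are cut into separate messages. Normal prostate epithelium is known for secreting citrate rather than oxidizing it.

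The 18 samples formed 6 groups of 3. VCaP, an established prostate cancer line with a TMPRSS2:ERG fusion, was the only line, so all results rest on it. VCaP-shERG cells, in which a Tet-on vector drives a short hairpin RNA against ERG, received vehicle (labelled DMSO; shERG-vehicle) or doxycycline at 1 µg/mL (shERG-Dox). Parental VCaP cells received DMSO or 50 µM PBITE-1, a ligand of the PNT domain of ERG, for 4, 8, or 12 h. The sample labels give neither the duration of doxycycline nor the time of the DMSO samples, and all 3 PBITE-1 times share the DMSO samples. Doxycycline, an antibiotic known to inhibit protein synthesis in mitochondria, was given only to cells with the hairpin in these samples, so the hairpin and the drug cannot be told apart. A lower level in bulk RNA can reflect fewer cells that express a gene or less RNA per cell, and these also cannot be told apart.

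Totals were between 11308600 and 17483423 counts per sample. ERG, the target of the hairpin, had 461, 449, and 433 CPM (counts scaled to library total and TMM factor within each experiment) in shERG-vehicle and 166, 167, and 159 CPM in shERG-Dox (log2 fold change -1.44, SE 0.04, limma adjusted p = 3.29e-22). With PBITE-1 its log2 fold changes were -0.68, -1.62, and -1.58 after 4, 8, and 12 h. The 9 luminal prostate markers checked, among them KLK3, summed to 50461 to 153868 counts per sample, with 127970 to 153868 in shERG-vehicle, 80770 to 89727 in shERG-Dox, 117104 to 133812 in DMSO, and 50461 to 55124 after 12 h of PBITE-1. These sums are raw counts, not adjusted for sample totals, and the 9 genes did not all fall. With Dox, 5 of the 9 were lower and 3 higher (limma adjusted p under 0.05), against 35.3% and 35.1% of all tested genes. At 12 h of PBITE-1, 7 were lower and 1 higher, against 39.4% each way. The median log2 fold changes of the 9 were -0.24 with Dox and -0.84 at 12 h. The 9 markers of immune, endothelial, stromal, and basal cells summed to 35 to 158 counts per sample. Their sum was higher in shERG-Dox (93 to 112 counts) than in shERG-vehicle (35 to 48 counts) and higher after 12 h of PBITE-1 (107 to 158 counts) than in DMSO (40 to 69 counts), and COL1A1 held up to 110 of these counts. PTPRC, CD3E, and COL1A2 had at most 4 counts in any sample and KRT5 was not in the table. The part of either list in the OXPHOS results was not tested.

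The promoters of the nuclear genes are shown first, since the rule did not use these sequences. For 64 of the 80 nuclear members the RefSeq promoter table (GRCh38.p14) held 250 bases before and 50 bases after the annotated start, and 16 had no entry. Motifs of factors known to activate respiration genes were searched on both strands: CCGGAAG, the core bound by ETS factors such as GABP, CGCATGCG, the centre of the NRF1 palindrome, and AAGATGGC, the core of the YY1 site. No position is shared between the different motifs in the sequences below, but a palindromic CTTCCGGAAG holds CCGGAAG on both strands and counts as a pair of copies. Capitals mark the matches. ATP5MC1 (chr17:48892537-48892836, plus strand), which encodes the c subunit of the ATP synthase ring, is shown because it had the largest decrease at 12 h, NDUFS6 (chr5:1801157-1801456, plus strand) for the largest decrease in complex I, ATP5PF (chr21:25735005-25735304, minus strand) because it held all 3 motifs, and ATP5MK (chr10:103396426-103396725, minus strand) because it held 3 copies of the ETS core.
ATP5MC1: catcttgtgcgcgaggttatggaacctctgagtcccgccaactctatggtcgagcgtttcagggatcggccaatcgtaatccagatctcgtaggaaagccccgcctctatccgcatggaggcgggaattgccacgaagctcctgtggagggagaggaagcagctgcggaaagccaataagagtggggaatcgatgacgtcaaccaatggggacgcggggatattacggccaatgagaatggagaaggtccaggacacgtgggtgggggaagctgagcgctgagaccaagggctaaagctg
NDUFS6: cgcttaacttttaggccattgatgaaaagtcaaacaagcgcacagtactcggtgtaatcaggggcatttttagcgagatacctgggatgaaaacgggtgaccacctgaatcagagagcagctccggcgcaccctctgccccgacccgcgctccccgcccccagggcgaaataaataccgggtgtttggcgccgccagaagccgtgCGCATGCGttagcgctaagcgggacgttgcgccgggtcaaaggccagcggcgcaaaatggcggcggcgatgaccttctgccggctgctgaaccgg
ATP5PF: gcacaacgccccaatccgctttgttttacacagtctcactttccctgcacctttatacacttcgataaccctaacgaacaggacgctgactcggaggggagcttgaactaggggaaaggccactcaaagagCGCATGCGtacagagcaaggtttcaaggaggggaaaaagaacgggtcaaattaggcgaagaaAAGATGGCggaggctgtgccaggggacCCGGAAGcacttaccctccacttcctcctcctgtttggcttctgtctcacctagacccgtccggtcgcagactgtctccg
ATP5MK: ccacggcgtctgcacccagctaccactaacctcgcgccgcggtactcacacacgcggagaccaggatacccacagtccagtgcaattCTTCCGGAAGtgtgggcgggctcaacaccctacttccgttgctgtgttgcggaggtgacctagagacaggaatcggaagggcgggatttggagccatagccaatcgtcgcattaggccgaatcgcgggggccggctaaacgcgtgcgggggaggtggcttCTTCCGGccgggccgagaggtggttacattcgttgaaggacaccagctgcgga
The promoter of ATP5MC1 held none of these letters in this window, and that of NDUFS6 held the centre of the NRF1 palindrome. The ETS core was found in 20 of the 64 member promoters (31.3%), against 10.7% of all 27305 promoters in the table and 18.6% of the 10946 promoters of tested genes. The NRF1 centre was found in 10 (15.6%, against 2.19% of all and 3.73% of tested genes) and the YY1 core in 11 (17.2%, against 3.03% and 5.07%). In all, 34 of the 64 (53.1%) held at least 1 of the motifs, against 14.7% of all promoters. This share was not computed for promoters of tested genes, where it is at least the 18.6% with an ETS core. The members with an ETS core had a median log2 fold change of -0.54 with Dox and of -0.60 at 12 h of PBITE-1, and the 44 members without it had medians of -0.39 and -0.63. For the NRF1 centre, the medians were -0.47 with and -0.50 without it for Dox and -0.74 and -0.61 at 12 h. For the YY1 core they were -0.54 and -0.48 for Dox and -0.77 and -0.63 at 12 h. A match describes letters in this window and not binding.

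The share of counts on the 13 mitochondrial genes and on the 80 nuclear members was computed in each sample first, since these genomes are transcribed by different machineries. The 13 mitochondrial genes took 9.14, 8.94, and 8.96% of all counts in shERG-vehicle and 8.90, 8.36, and 8.23% in shERG-Dox. They took 9.67, 10.1, and 9.78% in DMSO, between 9.27 and 9.38% at 4 h of PBITE-1, between 8.62 and 8.98% at 8 h, and 8.17, 8.06, and 8.43% at 12 h. Groups of treated samples lay below their controls without overlap in every case. These shares relate to library totals and carry no TMM scaling. With TMM, 5 of the 13 genes were lower and 3 higher at 4 h, with a median log2 fold change of 0.01. The 80 nuclear members took 0.898 to 0.917% of counts in shERG-vehicle and 0.761 to 0.765% in shERG-Dox. In parental cells their share was 0.709 to 0.747% with DMSO. After 4 h of PBITE-1 it lay between 0.666 and 0.695%, after 8 h between 0.628 and 0.638%, and after 12 h between 0.474 and 0.510%. The 4 parental groups did not overlap, with the lowest share at 12 h. The ratio of mitochondrial to nuclear OXPHOS counts, which does not depend on scaling between libraries, was 9.75 to 10.0 in shERG-vehicle and 10.8 to 11.7 in shERG-Dox. It lay between 12.9 and 14 in DMSO, between 13.4 and 14.1 after 4 h of PBITE-1, between 13.7 and 14.2 after 8 h, and between 16 and 17.5 after 12 h. The ratio in shERG-Dox did not overlap with that in shERG-vehicle, nor did that at 12 h with DMSO, whereas the samples at 4 and 8 h overlapped with DMSO.

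**Figure D1:**
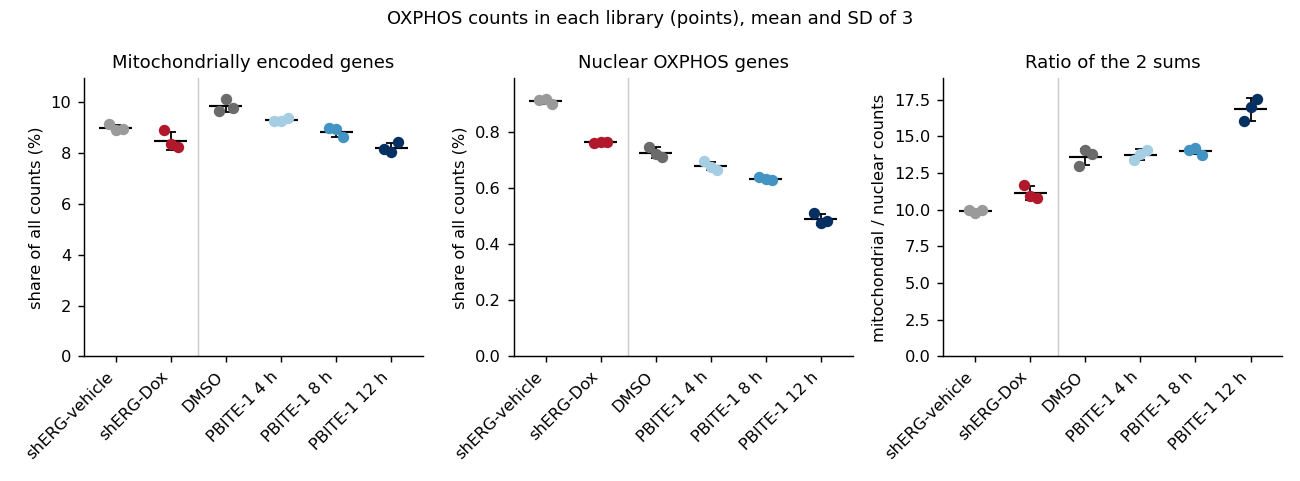
Share of all counts (%) on the 13 mitochondrial genes and on the 80 nuclear OXPHOS genes, and the ratio of both sums, in each of the 18 samples (points), with mean and SD of 3 (lines and bars). The nuclear share at 12 h of PBITE-1 was 0.474 to 0.510%, below the 0.709 to 0.747% of DMSO.

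Levels per kilobase of merged exons, averaged over the 18 samples, separated the genomes without overlap. The mitochondrial genes ranged from 172381 counts per kilobase for MT-CO1, the catalytic subunit of complex IV, down to 30064 for MT-ND6. The highest nuclear member, ATP5F1B, the catalytic beta subunit of the ATP synthase, had 6682 counts per kilobase. The lead of complex II, which has no mitochondrial gene, was SDHB, its iron-sulfur subunit, with 370 counts per kilobase, and complexes I and III were led by MT-ND1 (145214) and MT-CYB (78520).

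In shERG-Dox, nuclear OXPHOS genes were lower across all complexes with TMM scaling, and the largest decreases lay in the ATP synthase. Of the 80 nuclear members, 69 were lower and 0 higher than in shERG-vehicle (limma adjusted p under 0.05), against 35.3% of all tested genes called lower and 35.1% called higher. By edgeR's quasi-likelihood test and DESeq2, 69 and 66 were lower and none higher. The median log2 fold change of the 80 was -0.46, against 0.02 for all genes tested, and 76 of the 80 values were below 0. The 11 that did not pass had values from -0.18 to 0.18, and 9 of them were complex I genes. The scale of this comparison depends on the normalization. With library size only, the median of all tested genes moved to 0.28, and 45 nuclear members were lower and 8 higher. Their median was -0.20, which is 0.48 below that of all genes, as it was with TMM. In nuclear complex I, 12 of 37 genes were lower and 7 higher with library size only. The median of these 37 was -0.06, or -0.34 relative to that of all genes, as it was with TMM. Only ATP5MC1 and ATP5F1D also passed the fold threshold of 1 on the log2 scale that the study used (7.19% of all genes did so in this direction).

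All 17 nuclear and both mitochondrial members of complex V were lower with Dox. ATP5MC1 had 91.9, 91.4, and 83.8 CPM in shERG-vehicle and 35.6, 37.0, and 37.0 CPM in shERG-Dox. The treated samples were all below the controls (log2 fold change -1.28, SE 0.06, limma adjusted p = 3.18e-16). ATP5F1D, which encodes the delta subunit of the central stalk, had 46.6, 40.7, and 42.6 CPM in shERG-vehicle and 23.3, 21.5, and 18.4 CPM in shERG-Dox (log2 fold change -1.04, SE 0.09, limma adjusted p = 3.62e-11). ATP5F1B, the most abundant nuclear member per length, went from 1613, 1592, and 1583 CPM to 869, 886, and 906 CPM (log2 fold change -0.85, SE 0.02, limma adjusted p = 5.19e-22). The small membrane subunit gene ATP5ME changed by -0.87 (SE 0.06) on the log2 scale. None of these 4 genes, named for the most negative called values, overlapped between groups, which that choice makes likely. ATP5MC2, another of the genes for the identical mature c subunit, changed by -0.21 and ATP5MC3 by -0.76.

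With Dox, the medians of complexes I and IV were closer to 0 than that of complex V, and those of complexes II and III were near it. The medians were -0.35 for complex I, -0.55 for complex II, -0.52 for complex III, and -0.38 for complex IV, against -0.56 for complex V. All 10 members of complex III were lower, as were 15 of 16 of complex IV and 3 of 4 of complex II. In complex II, SDHA, SDHB, and SDHD were lower (log2 fold changes -0.52, -0.57, and -0.66), and SDHC, which anchors the complex in the membrane, was 0.06 without passing the test. Values also differed within complex I: NDUFV1, which carries the NADH site, was -0.72, while NDUFB4, an accessory subunit of the membrane arm, was -0.10 (SE 0.04, limma adjusted p = 0.0313).

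**Figure D2:**
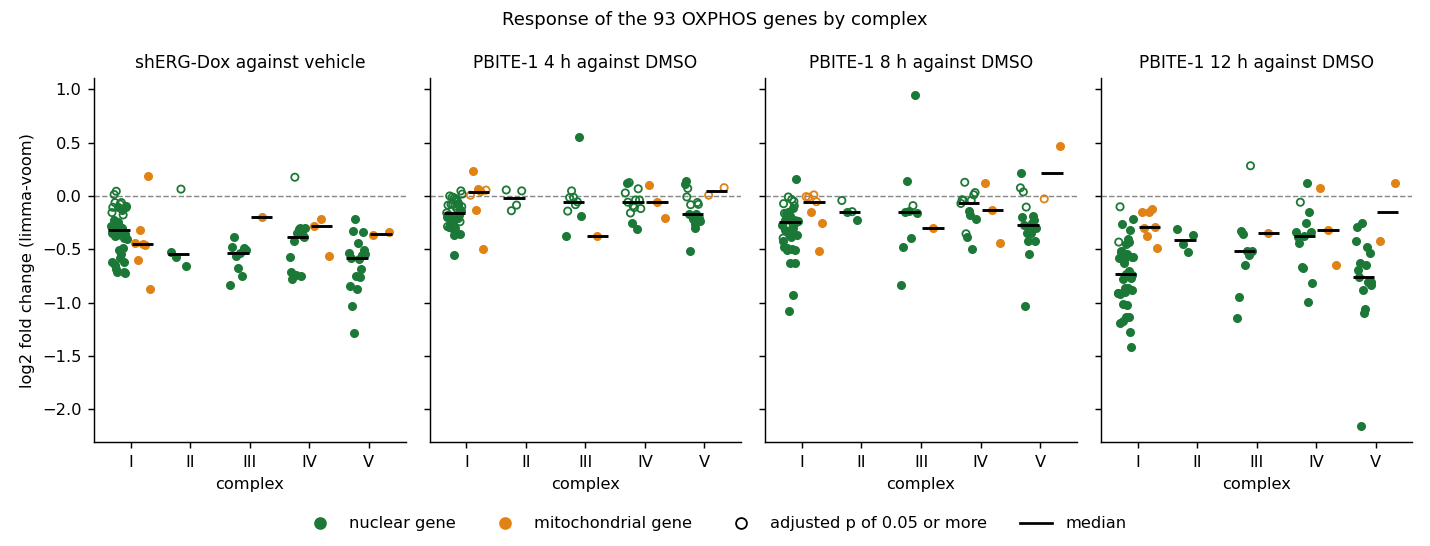
Log2 fold change (limma-voom) of each of the 93 OXPHOS genes by complex in the 4 comparisons. Green points are nuclear and orange points mitochondrial genes, open points did not pass an adjusted p of 0.05, and lines are medians. The median of the 80 nuclear genes was -0.46 with Dox and -0.11, -0.23, and -0.61 at 4, 8, and 12 h.

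With PBITE-1, the first change at 4 h was small. Of the nuclear members, 28 were lower and 4 higher than in DMSO, against 24.7% and 26.4% of all genes, and the median was -0.11 (all genes: -0.01). No member passed the fold threshold of 1, which 2.99% of all genes passed in the lower direction. In complex I, 14 of 37 nuclear genes were lower and 0 higher, and in complex V 10 of 17 were lower and 2 higher, whereas complex II had none in either direction. NDUFB3, an accessory subunit of the membrane arm of complex I, had 38.8, 38.0, and 39.5 CPM in DMSO and 26.6, 29.1, and 23.9 CPM at 4 h (log2 fold change -0.55, SE 0.08, limma adjusted p = 4.86e-07). NDUFB4, of the same arm, was -0.36, UQCR10, a small subunit of complex III, was -0.38, and ATP5MC1 was -0.51. These 4 genes, named for the most negative called values, did not overlap with DMSO, which that choice makes likely. The 4 that were higher were ATP5F1B (0.14), COX5A (0.13), ATP5F1A, the alpha subunit of the ATP synthase (0.11), and UQCRHL (0.55). COX5A and ATP5F1A did not pass with library size only (0.08 and 0.06), with upper-quartile scaling (0.10 and 0.09), or without DMSO replicate 2, nor COX5A without 4 h replicate 2, without the filter, or with all samples in a single fit. UQCRHL did not pass without DMSO replicate 3 (0.49) or 4 h replicate 1 (0.44).

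At 8 h, 51 nuclear members were lower and 4 higher, against 37.0% and 35.9% of all genes, and the median was -0.23 (all genes: -0.02). NDUFB3 and ATP5MC1 passed the fold threshold of 1, as 8.86% of all genes did. NDUFB3 had 18.2, 20.5, and 16.2 CPM (log2 fold change -1.08, SE 0.09). These samples lay below those at 4 h and in DMSO with no overlap. NDUFB4 was -0.63 (SE 0.06). UQCR10 was -0.84 (SE 0.08). The higher genes were ATP5F1B (0.21), NDUFV1 (0.16), UQCRC1, a core subunit of complex III (0.14), and UQCRHL (0.95). Of these, UQCRC1 overlapped with DMSO and did not pass with library size only (0.08), without DMSO replicate 3 (0.12), or without 8 h replicate 1 (0.13) or 2 (0.11).

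At 12 h, nearly all nuclear OXPHOS genes were lower. Of the 80, 75 were lower and 1 higher (39.4% of all genes in each direction). The median was -0.61 (all genes: -0.01), and 12 of the 80 passed the fold threshold of 1, as did 15.4% of all genes tested. These 12 were 8 complex I genes, UQCR10, ATP5MC1, ATP5ME, and ATP5MF, so the share of members past this threshold was close to that of all genes. The 4 that did not pass the test were NDUFA11 (-0.43), NDUFA2 (-0.10), UQCRHL (0.28), and COX6A1 (-0.06).

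ATP5MC1 had the most negative value of the 80. It had 53.1, 51.8, and 46.4 CPM in DMSO, 34.0, 34.2, and 37.3 CPM at 4 h, 26, 22.7, and 25.1 CPM at 8 h, and 11.5, 11.3, and 11 CPM at 12 h. The 4 groups did not overlap (12 h: log2 fold change -2.15, SE 0.10, limma adjusted p = 4.75e-22). NDUFS6, an accessory subunit of complex I, had 54.1, 49.7, and 47.7 CPM in DMSO and 19.9, 17.5, and 19.4 CPM at 12 h (log2 fold change -1.41, SE 0.08, limma adjusted p = 6.95e-19). NDUFS5, also an accessory subunit, went from 47.7, 44.6, and 48.3 CPM to 22.1, 17.8, and 18.4 CPM (-1.28, SE 0.08). NDUFA13, known also as GRIM-19, went from 8.61, 8.54, and 6.79 CPM to 3.95, 2.94, and 3.56 CPM (-1.19, SE 0.18). All 12 h samples of these genes were below all DMSO samples, which their choice by the most negative called values makes likely. COX7A2L, which is known for joining complexes III and IV in supercomplexes, was the higher gene, with 72.7, 70.4, and 71.6 CPM in DMSO and 75.3, 79.4, and 78.1 CPM at 12 h (log2 fold change 0.12, SE 0.05, limma adjusted p = 0.036). This call was lost with library size only, with all samples in a single fit, and without replicate 2 or 3 of either group, where the values were 0.08 to 0.12.

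The medians differed between complexes at 12 h. Among nuclear genes, the median was -0.73 for complex I, -0.41 for II, -0.52 for III, -0.38 for IV, and -0.76 for V. Within complex I, the 7 core subunits had a median of -0.74 and the 29 accessory subunits of -0.73. The gap between complexes can be read within each sample, free of scaling, as the median of complex I minus that of complex IV, each relative to the control mean. In DMSO it lay between -0.05 and 0.03. After 4 h of PBITE-1 it was -0.18 to -0.08, after 8 h -0.27 to -0.12, and after 12 h -0.34 to -0.32, and each treated sample lay below all DMSO samples. In shERG-Dox the gap had the other sign, 0.05 to 0.13, against -0.03 to 0.03 in shERG-vehicle. The gap of complex V to complex IV was -0.37 to -0.29 at 12 h and -0.21 to -0.12 with Dox. The members and complexes were chosen with results known, so these gaps are given with no test.

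The change over time was also seen without the DMSO samples. With no vehicle samples at matched times, time of exposure and time in culture cannot be told apart. Between 4 and 12 h, 73 nuclear members were lower and 1 higher (35.0% of all genes in each direction), with a median of -0.49, and 9 mitochondrial genes were lower and 1 higher. The higher nuclear gene was COX7A2L (0.16, SE 0.05), which did not pass without 4 h replicate 2 or 3. The mean CPM declined from 4 to 8 to 12 h in 63 of 80 nuclear and in 9 of 13 mitochondrial members. NDUFB3 did not follow this order, with 22.7, 18.7, and 23.1 CPM at 12 h, overlapping with 8 h.

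**Figure D3:**
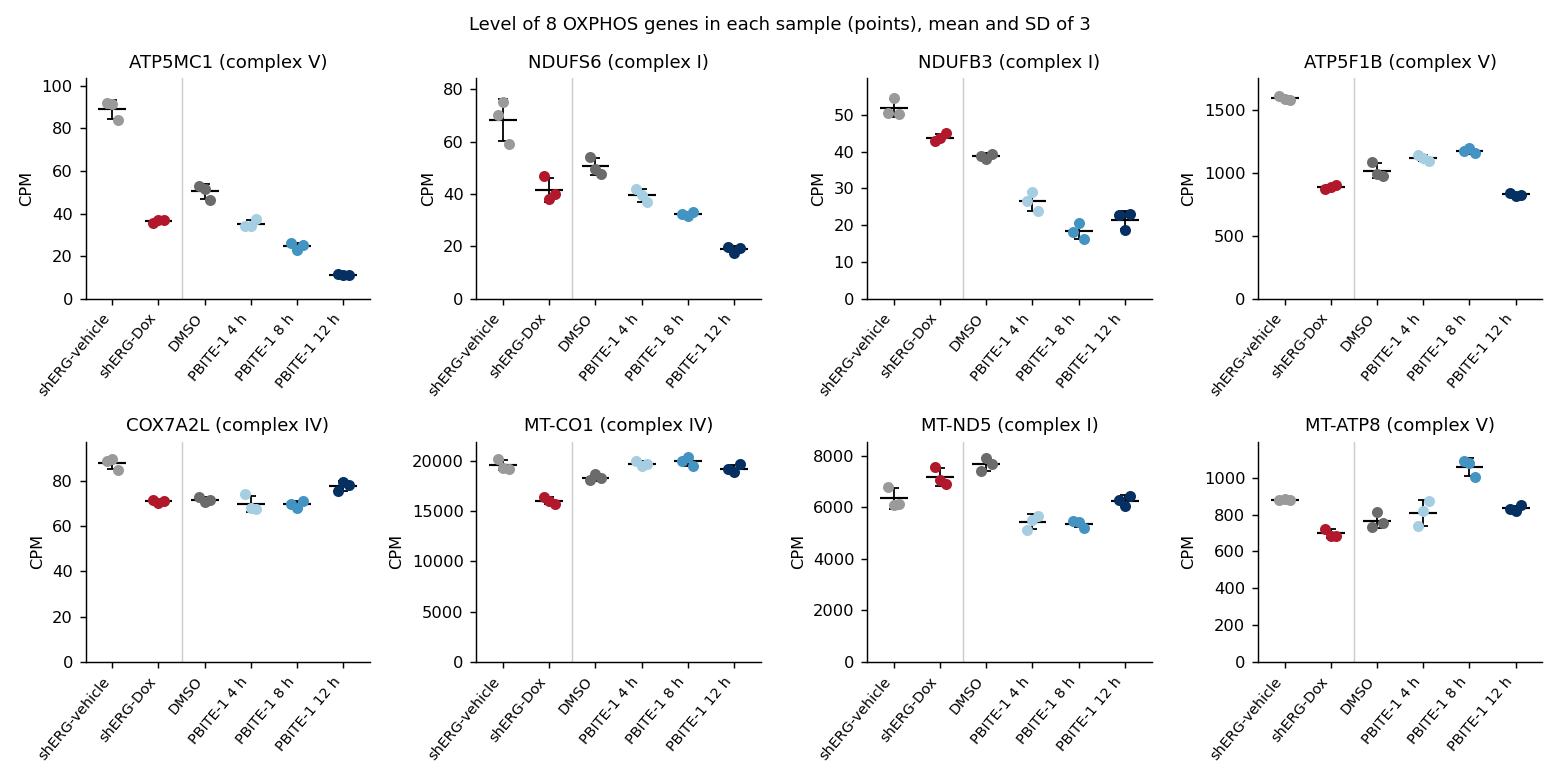
CPM of 8 OXPHOS genes in each sample (points), with mean and SD of 3, for both experiments (separated by a grey line). ATP5MC1 fell in steps to 11 to 11.5 CPM at 12 h, ATP5F1B was higher at 4 and 8 h and lower at 12 h, and MT-ND5 was higher with Dox and lower with PBITE-1.

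The mitochondrially encoded genes did not all move in 1 direction, although neighbouring genes share primary transcripts. With Dox, 12 of the 13 were lower and MT-ND5 was higher (35.3% and 35.1% of all genes), and their median was -0.37. With library size only, 9 were lower and 2 higher, the median was -0.11, MT-CO2 (0.05) and MT-CYB (0.07) changed sign, and MT-CO1 did not pass (-0.03). With PBITE-1, 5 were lower and 3 higher at 4 h (median 0.01), 6 lower and 2 higher at 8 h (median -0.05), and 11 lower and 2 higher at 12 h (median -0.30; 11 and 0 with library size only). Of all genes, 24.7% were lower and 26.4% higher at 4 h, 37.0% and 35.9% at 8 h, and 39.4% each way at 12 h, so the counts of higher genes at 4 h and of lower genes at 8 h were near these shares. The median at 4 h was negative with upper-quartile scaling (-0.02) and library size only (-0.04). Without DMSO replicate 2, which had the highest mitochondrial share (10.1%), 6 were higher at 4 h.

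MT-CO3, a core subunit of complex IV, fell at every time. It had 9748, 10384, and 9960 CPM in DMSO, 8590, 8713, and 8707 CPM at 4 h, 7533, 7469, and 7139 CPM at 8 h, and 6404, 6176, and 6573 CPM at 12 h. None of these groups overlapped (12 h: log2 fold change -0.65, SE 0.02, limma adjusted p = 5.59e-25). MT-CO1, of the same complex, had 18046, 18639, and 18267 CPM in DMSO and 19165, 18867, and 19656 CPM at 12 h (log2 fold change 0.07, SE 0.02, limma adjusted p = 0.00128), after 0.11 and 0.12 at 4 and 8 h. The rise at 12 h was 0.03 and not called with library size only or with all samples in a single fit. With Dox, MT-CO1 was -0.29 and MT-CO3 -0.56. The other core gene, MT-CO2, fell by 0.21 with Dox and by 0.32 at 12 h.

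MT-ND5, the largest complex I subunit in the membrane arm, differed in sign between the experiments. It had 6795, 6090, and 6129 CPM in shERG-vehicle and 7548, 7052, and 6902 CPM in shERG-Dox (log2 fold change 0.18, SE 0.03, limma adjusted p = 1.67e-06). In parental cells it had 7391, 7896, and 7690 CPM in DMSO, 5109, 5519, and 5670 CPM at 4 h, 5462, 5411, and 5198 CPM at 8 h, and 6292, 6034, and 6449 CPM at 12 h. It was lower at each time (log2 fold changes -0.50, -0.51, and -0.29) and higher at 12 h than at 4 h (0.20, SE 0.03, limma adjusted p = 9.45e-08). MT-CYB, the next gene on the same strand (M:14747-15887), was lower with Dox (-0.20) and at all times (-0.38, -0.30, and -0.35), and did not differ detectably between 12 and 4 h (0.03, SE 0.03, limma adjusted p = 0.24). MT-ND6, which lies between them on the opposite strand (M:14149-14673, GENCODE release 29 on GRCh38), was 1292, 1243, and 1328 CPM in shERG-vehicle and 794, 726, and 601 CPM in shERG-Dox. Its log2 fold change of -0.87 (SE 0.05) was the most negative of the 13 with Dox, and it was -0.49 (SE 0.04) at 12 h. The sources used here do not say if reads were counted by strand, so reads of MT-ND6 and its neighbours cannot be fully told apart.

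Of the remaining complex I genes, MT-ND1, MT-ND2, MT-ND4, and MT-ND4L were lower with Dox by 0.44 to 0.60 on the log2 scale. With PBITE-1, MT-ND1, MT-ND4, and MT-ND4L moved little at first. MT-ND2 was higher at 4 h (0.24, SE 0.03) and lower at 12 h (-0.30, SE 0.03), and MT-ND1 changed by -0.15 at 12 h. MT-ND4 was 0.06 at 4 h, a call that was lost with edgeR, DESeq2, and 4 other alternatives, and -0.15 at 12 h. MT-ND4L was -0.12 at 12 h, which did not pass without DMSO replicate 2 (-0.07) or without the filter on low counts. MT-ND3 was lower in all 4 comparisons (-0.13 to -0.37). The overlapping pair MT-ATP8 and MT-ATP6 of complex V went apart: MT-ATP6 changed by -0.03 at 8 h and -0.43 at 12 h, whereas MT-ATP8 had 734, 812, and 755 CPM in DMSO, 1089, 1082, and 1002 CPM at 8 h, and 832, 822, and 850 CPM at 12 h (log2 fold changes 0.47 and 0.12). The rise of MT-ATP8 at 12 h was not called with library size only, without the filter on low counts, or without DMSO replicate 1. Since these genes share bases, their counts are uncertain.

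**Figure D4:**
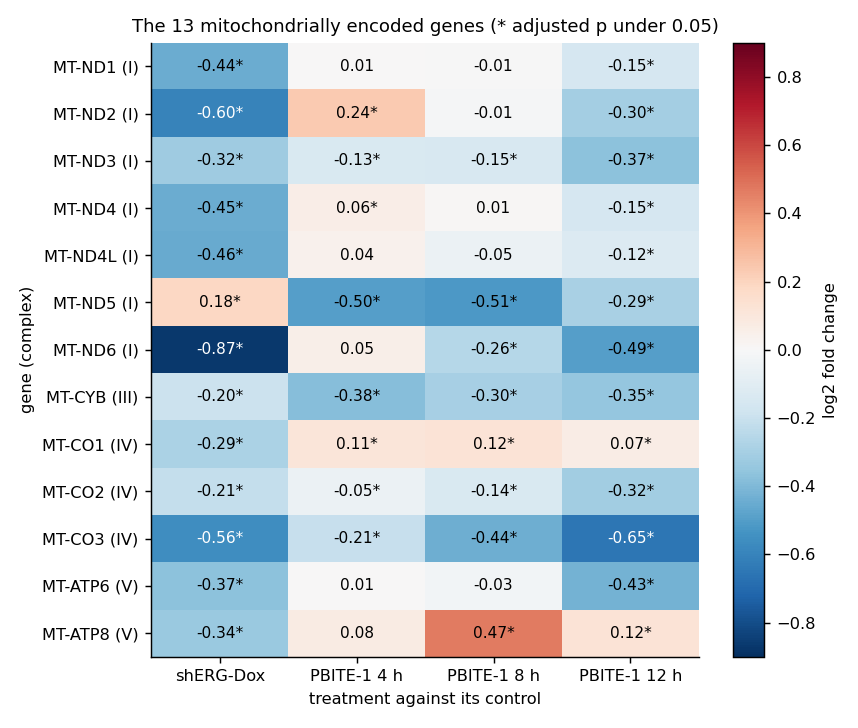
Log2 fold change of the 13 mitochondrial genes (rows, by complex and then by symbol) in the 4 comparisons (columns), with an asterisk for an adjusted p under 0.05. MT-CO3 and MT-CYB were negative throughout, and MT-ND5 had the opposite sign with Dox (0.18) and PBITE-1 (-0.50, -0.51, and -0.29).

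The difference between the experiments was tested as an interaction, the response to PBITE-1 at 12 h minus that to Dox, in all 18 samples. Cell line and treatment cannot be told apart in this test. Of the nuclear members, 40 had a lower and 13 a higher response to PBITE-1, against 35.1% and 33.3% of all genes. With upper-quartile scaling these numbers were 50 and 3, and with library size only they were 60 and 1, with the median of all genes at -0.28. The complexes differed: 25 of 37 nuclear complex I genes were lower and 0 higher (32 and 0 with library size only), whereas 2 of 13 nuclear complex IV genes were lower and 6 higher (7 and 0 with library size only). Relative to the median of all genes, the median difference was -0.49 for nuclear complex I and 0.05 for nuclear complex IV with TMM, and -0.48 and 0.05 with library size only. The interaction was most negative for NDUFA13 (-1.12, SE 0.22, limma adjusted p = 1.45e-05), which was -0.11 with Dox without passing the test. NDUFB4 had an interaction of -0.84 (SE 0.07, limma adjusted p = 1.18e-13). ATP5F1B (0.51, SE 0.04), COX7A2L (0.38, SE 0.07), and COX5A, an intermediate subunit of complex IV (0.28, SE 0.08), were higher. Of the 13 mitochondrial genes, 5 were lower, near the share of all genes, and 7 higher, and with library size only 6 and 2.

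**Figure D5:**
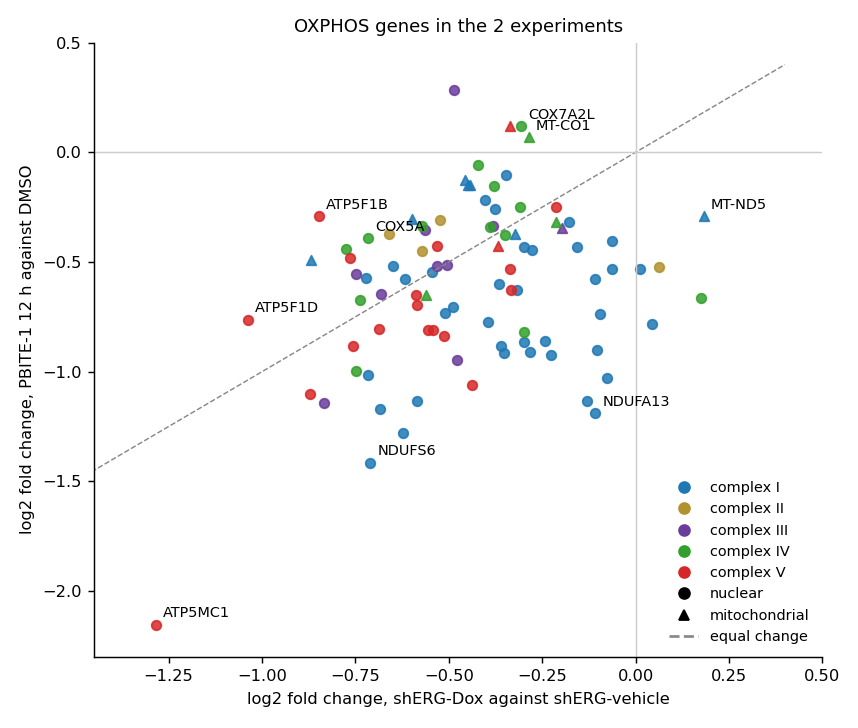
Log2 fold change of each OXPHOS gene with Dox (x axis) and at 12 h of PBITE-1 (y axis), by complex (colour) and genome (shape), with a dashed line of equal change. Complex I genes such as NDUFA13 (-0.11 and -1.19) lie below the line, and ATP5F1B (-0.85 and -0.29) and COX5A (-0.71 and -0.39) lie above it.

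The comparisons with Dox and with PBITE-1 at 12 h have separate control samples. Of the 80 nuclear genes, 65 were lower in both, which is 94.2% of the 69 lower with Dox and 86.7% of the 75 lower at 12 h. With 69 and 75 of 80 lower, at least 64 had to be shared, so this overlap says nothing beyond both counts. A further 10 were lower at 12 h only and 4 with Dox only. Across the 80 genes the sizes of both responses were weakly related (Pearson r = 0.26, Spearman rho = 0.13), as a description over genes that are not independent. Over all 14164 genes, r was 0.26 and rho was 0.33.

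Factors that assemble the complexes or make mitochondrial RNA were described from lists of known factors. Of 14 complex I assembly factors, 11 were lower and 0 higher with Dox, and 10 were lower and 2 higher at 12 h. NDUFAF8 was -0.80 and -1.94, NDUFAF4 -1.15 and -1.44, and NDUFAF2 -1.29 and -1.27 in these comparisons, and NDUFAF1 was higher at 12 h (0.77). Of 20 complex IV assembly factors, 12 were lower and 2 higher with Dox and 17 were lower and 1 higher at 12 h, with a median of -0.87 at 12 h, against -0.38 for the 13 nuclear complex IV genes. COA7 had the largest changes there, -1.14 with Dox and -2.72 at 12 h, and SCO1, a copper chaperone, was -0.52 and -1.08. All 6 complex III factors were lower with Dox, and 5 were lower and 1 higher at 12 h. Of 5 complex V factors, 3 were lower and 1 higher in each comparison, and of 4 complex II factors 1 was lower in each. Each share can be read against the 35.3% and 39.4% of all genes called lower.

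Of 26 genes for mitochondrial transcription and RNA processing, 22 were lower and 2 higher with Dox (median -0.65), and 20 were lower and 0 higher at 12 h (median -0.73). Of all genes tested, 35.3% were lower and 35.1% higher with Dox, and 39.4% were called each way at 12 h. TFB2M, which opens the promoter for the mitochondrial RNA polymerase, changed by -1.39 with Dox and by -1.20, -1.87, and -1.80 at 4, 8, and 12 h. PNPT1 (-0.89 with Dox and -1.84 at 12 h) and PRORP (-0.62 and -1.82) cut or degrade mitochondrial RNA, and TBRG4 was -1.14 and -0.67. TFAM, which packages mitochondrial DNA, was -0.93 with Dox and -0.88 at 12 h, and the polymerase POLRMT was -0.74 and -1.11. Of 12 nuclear regulators of respiration genes, 11 were tested, and PPARGC1A had at most 8 counts in any sample. With Dox, 9 were lower and 1 higher, and at 12 h 8 were lower and 1 higher, against the same shares of all genes. The coactivators PPRC1 (-1.22 with Dox; -1.71, -2.17, and -2.40 at 4, 8, and 12 h) and PPARGC1B (-1.32 and -1.92 at 12 h) and the cofactor HCFC1 (-0.70 and -1.54) had the most negative values at 12 h. NRF1 was lower with Dox (-0.21) and higher at every time of PBITE-1 (0.76, 0.94, and 0.43), and GABPB1, the partner of the ETS factor GABPA, was -0.85 and -1.17.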

How the data were processed

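Total RNA of VCaP cells was depleted of ribosomal RNA and sequenced as paired-end reads. The authors deposited raw counts for each gene, which are whole numbers. Their methods name Kallisto, whereas the submitters' processing notes name STAR, featureCounts, and hg38, so the counter of this table, its annotation, and its use of strand and of reads with several matches are not settled. Counts were scaled by TMM (edgeR 4.0.16) and tested with limma-voom (limma 3.58.1, R 4.3.3) with Benjamini-Hochberg adjustment over the 14164 genes kept by filterByExpr. A gene was called at an adjusted p under 0.05. Separate fits were made for the 6 shERG and 12 parental samples, and all 18 entered the interaction. The test procedure was also run on simulated counts of genes already kept by the filter, with the same spread set for every gene. The filter itself was not tested. Alternatives included edgeR's quasi-likelihood test, DESeq2 1.42.0, other scalings and filters, and leaving out samples. Positions and exon lengths are from GENCODE release 29 on GRCh38. Totals of 11308600 to 17483423 counts limit the precision. The study's methods call the PBITE-1 samples biological replicates, and the labels do not say if the 3 samples of a group came from separate cultures, so p-values measure the spread between these samples, which may be technical.

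Members and gene lists were chosen with earlier results of these data known. Genes named are the mitochondrial members, the 4 lowest and the 4 highest called nuclear members by fold change in each treatment, the highest member per length of each complex, ERG, and up to 4 genes per list. Other nuclear members given with values, and TFAM, POLRMT, NRF1, GABPB1, SCO1, NDUFAF1, OGDH, and RRM2B, were named after their values were seen. A member that this rule names is not reported here.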

Additional observations from a re-analysis of the deposited data

Results flagged for a closer look

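Dox and 12 h of PBITE-1 gave different responses in the interaction test (limma adjusted p under 0.05) for 40 nuclear genes with a lower and 13 with a higher response to PBITE-1, and for 5 mitochondrial genes with a lower and 7 with a higher response. Of all genes tested, 35.1% had a lower and 33.3% a higher response. For 4 genes the responses also had opposite signs. MT-ND5 was higher in all 3 shERG-Dox samples than in the shERG-vehicle samples and lower in all 3 samples at 12 h than in DMSO, with an interaction of -0.52 (SE 0.04). MT-CO1, COX7A2L, and MT-ATP8 were lower with Dox and higher at 12 h, with interactions of 0.31 (SE 0.03), 0.38 (SE 0.07), and 0.42 (SE 0.06). With library size only, the rises of MT-CO1, COX7A2L, and MT-ATP8 at 12 h were not called (0.03, 0.08, and 0.08). The decrease of MT-CO1 with Dox was not called there either (-0.03). Cell line, treatment, and time cannot be told apart in these differences. No test for an outlying sample was made, since each group had 3 samples.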

How the results depend on the processing

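RLE scaling, scaling on nuclear genes, quality weights, and edgeR's quasi-likelihood test kept every count of lower and higher members within 1.5 times of that reported. With library size only, 45 nuclear genes were lower and 8 higher with Dox, 2 mitochondrial genes were higher with Dox, 2 nuclear genes were higher at 4 h, 11 mitochondrial genes were lower at 8 h, 0 nuclear and 0 mitochondrial genes were higher at 12 h, and 1 nuclear and 2 mitochondrial genes were higher in the interaction. Upper-quartile scaling gave 3 higher nuclear genes with Dox, 2 at 4 h, and 3 in the interaction. DESeq2 gave 3 lower mitochondrial genes in the interaction. A single fit gave 0 higher nuclear and 1 higher mitochondrial gene at 12 h, and omitting the filter gave 1 higher mitochondrial gene at 12 h. With a fold threshold of 1 on the log2 scale, lower nuclear genes numbered 2 with Dox, 0 at 4 h, 2 at 8 h, 12 at 12 h, 5 from 4 to 12 h, and 2 in the interaction, and all other counts were 0. Without the 3 pseudogenes and copies, a choice made after seeing the data, 68 nuclear genes were lower with Dox and 73 at 12 h.

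Leaving out each sample gave 64 to 68 lower and 0 higher nuclear genes with Dox, with 12 lower and 1 higher mitochondrial genes. The nuclear counts were 20 to 30 lower and 2 to 5 higher at 4 h, 45 to 54 and 3 to 6 at 8 h, 72 to 75 and 0 to 1 at 12 h, 68 to 73 and 0 to 1 from 4 to 12 h, and 34 to 41 and 9 to 14 in the interaction. The mitochondrial counts were 4 to 5 lower and 3 to 6 higher at 4 h, 6 to 7 and 2 at 8 h, 10 to 11 and 1 to 2 at 12 h, 9 to 10 and 1 to 2 from 4 to 12 h, and 4 to 6 and 7 in the interaction. The 2 higher mitochondrial genes from 4 to 12 h were found without 4 h replicate 3 or 12 h replicate 2.

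Changes of sign occurred for values near 0 and for MT-CO2 (0.048) and MT-CYB (0.065) with Dox and library size only. With upper-quartile scaling, library size only, and a single fit, in this order, MT-ATP6 at 4 h was -0.018, -0.041, and -0.014, MT-ND1 at 4 h was -0.018, -0.042, and -0.015, and MT-ND4 at 8 h was -0.018, -0.056, and -0.018. MT-ND4L at 4 h was -0.0074 with library size only. With at least 10 counts in every sample, MT-ND1 and MT-ND2 at 8 h were 0.015 and 0.00879. Leaving out each sample gave ranges at 4 h of -0.0049 to 0.016 for MT-ATP6, -0.014 to 0.036 for MT-ND1, and -0.041 to 0.098 for MT-ND4L. At 8 h the ranges were -0.052 to 0.0020 for MT-ATP6, -0.027 to 0.025 for MT-ND1, -0.035 to 0.021 for MT-ND2, -0.00466 to 0.029 for MT-ND4, and -0.14 to 0.0045 for MT-ND4L.

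Same-numbered samples did not deviate together (r from -0.02 to 0.04), so no pairing by number was detected. This cannot settle whether they shared a culture or batch. With the replicate number as a block, 69 nuclear genes were lower with Dox, 27 at 4 h, 54 at 8 h, 75 at 12 h, and 40 in the interaction, and no count moved by more than 1.5 times. With 3 samples per group and as few as 19 counts for COX6A1P2 and 22 for NDUFA11, small changes of low genes were not detectable.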

Other observations

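Most enzymes that feed the respiratory chain were lower with Dox and at 12 h of PBITE-1. Of 18 enzymes of the TCA cycle and the pyruvate dehydrogenase complex, 14 were lower and 1 higher with Dox (median -0.45), 2 were lower and 2 higher at 4 h (median 0.01), and 15 were lower and 1 higher at 12 h (median -0.39). Of all genes tested, 35.3%, 24.7%, and 39.4% were lower in these comparisons. DLAT, a subunit of pyruvate dehydrogenase, was -0.93 with Dox and -1.07 at 12 h, MDH2, the mitochondrial malate dehydrogenase, -0.66 and -1.0, and FH, fumarase, -0.96 and -0.46, whereas OGDH was higher at 12 h (0.23). Of the 5 genes listed as electron carriers, 3 were lower and 0 higher with Dox (median -0.43). At 12 h, 3 were lower and 1 higher (median -0.13), against the same shares of all genes. Cytochrome c (CYCS), which carries electrons between complexes III and IV, was -1.04 with Dox and -0.32 at 12 h. ETFDH, which passes electrons from fatty acid oxidation to ubiquinone, was 0.14 without passing the test with Dox and 0.85 at 12 h.

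Genes of mitochondrial DNA replication were mostly lower with Dox and were mixed at 12 h of PBITE-1. Of 12, 9 were lower and 2 higher with Dox and 6 were lower and 3 higher at 12 h, against 35.3% of all genes lower and 35.1% higher with Dox and 39.4% each way at 12 h. TWNK, the replicative helicase, was -1.47 with Dox and -2.80 at 12 h, whereas POLG, the catalytic subunit of the polymerase, was -0.44 with Dox and 1.51 at 12 h. DNA2 was -1.42 and -0.99, and RRM2B, a subunit of ribonucleotide reductase, was 0.11 and 1.18.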
